A study of Mus musculus with 2 samples.

Results

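The cytotoxic granule genes described here are 7 granzymes (Gzma, Gzmb, Gzmc, Gzmd, Gzme, Gzmf and Gzmk), perforin (Prf1) and the granule membrane protein Nkg7, which make 9 of the 31053 mouse genes in the count table. They were chosen by name, as the granule effector genes read out in these cells, and they were compared across 4 T cell gates set by lineage transcripts. The cells were TCR-β+ T cells that the study sorted from transplanted B16 melanomas and from B16–IL-33 tumors, which grow from B16 cells engineered to overexpress secreted interleukin-33. Cells of both tumors carried hashtag antibodies, 2 tags per tumor, and were pooled, so that all libraries (gene expression, hashtag and TCR, 1 of each) came from 1 pool. The labels give no treatment, and the ages, sexes and number of the mice behind the pool are not given in the sources used here. B16 is an established mouse melanoma line, so both groups are transplanted tumors of 1 cell line, and the labels do not say whether the cells expressing IL-33 are 1 clone.

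The library held 43420305 unique molecular identifiers (UMIs, 1 per captured transcript) of mouse genes on 14035 barcodes. Barcodes with 200 to 2500 detected genes and under 5% mitochondrial UMIs were kept, which left 9078 cells with 26606999 UMIs and a median of 2467 UMIs per cell. The CD8 gate (more UMIs of Cd8a and Cd8b1 than of Cd4 and Foxp3) held 1260 cells. The Treg gate (Foxp3 and no CD8 transcript) held 2609 cells, and the Tconv gate (Cd4, no Foxp3 and no CD8 transcript) held 1769. The NKT gate (Zbtb16, the transcription factor PLZF, with neither Foxp3 nor CD8 transcripts) held 81 cells, of which 21 were also in the Tconv gate. Another 3380 kept cells passed no gate, 2990 of them without a single UMI of the gate genes. Median depth was 3462.5 UMIs in the CD8 gate, 2780 in the Treg gate, 2498 in the Tconv gate and 2939 in the NKT gate.

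The gates held T cells by their own markers, since a Cd3d, Cd3e or Cd3g UMI was found in 98.1% of CD8 cells, 97.5% of Treg cells, 97.6% of Tconv cells and 98.8% of NKT cells. Lineage calls from single UMIs were less sharp. Of the CD8 gate, 78 cells carried a Foxp3 UMI and 72 a Cd4 UMI, and 1126 of the 2609 Treg cells rested on 1 Foxp3 UMI. The Treg list (Foxp3, Il2ra, Ctla4 and Ikzf2) summed to 3216 CPM in Treg, 813 in Tconv, 472 in CD8 and 334 in NKT cells. The Tconv gate excludes Foxp3 UMIs, so Treg cells whose Foxp3 was not captured may lie in it. Their part in the Tconv levels and in the Treg to Tconv ratios was not tested. The NKT label was borne out only in part, because 16 of its 27 cells with a productive alpha chain carried the invariant chain of NKT cells. Transcripts of other cells were present in all gates. The myeloid list (6 genes, Lyz2 the most abundant) summed to 197 CPM (UMIs per 1000000 UMIs of the gate) in CD8, 194 in Treg, 194 in Tconv and 262 in NKT cells. The NK list (5 genes, Fcer1g the most abundant) summed to 210, 185, 194 and 338 CPM in the same order, highest in NKT cells (273 to 413), with Ncr1 at 0 in Tconv and NKT cells and Klra8 at 0 in Treg cells. This list does not mark NK cells alone. In the myeloid gate described below it summed to 7106 CPM, with Ncr1, Klrb1c and Klra8 at 0. The melanoma list summed to 11.5, 13.2, 14.5 and 3.59 CPM. The B cell list summed to 13.9, 20.9, 3.78 and 10.8 CPM, higher in Treg cells (17.9 to 24.3) than in Tconv cells (2.28 to 5.91). Trdc was the 1 gamma delta gene in the table and lay between 1.58 and 3.59 CPM, and all 4 mast cell or basophil genes were at 0 in the 4 gates. What part these transcripts have in the granzyme levels was not tested, but a gate of 191 myeloid barcodes without CD3 transcripts (21 of them also in a T cell gate) measured how much granzyme RNA cells that should lack it carried, and its shares are given beside those of the T cell gates.

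Granzymes are serine proteases that killer lymphocytes store in lytic granules and release onto a target cell, where perforin forms pores that let them in. Granzyme B cleaves caspases and their substrates after aspartate and drives apoptosis, granzyme A is a tryptase, and granzyme K is a tryptase of memory and tissue CD8+ T cells. Granzymes C to F are rodent genes that appear late after strong or repeated stimulation, and Treg cells are known to use granzyme B as well.

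The genes lie in 4 places of the mouse genome (GENCODE vM21, GRCm38, whole genes with their exons and introns). Nkg7 is at chr7:43437073-43438249 on the plus strand, Prf1 at chr10:61297833-61304680 on the plus strand, and Gzma (chr13:113093825-113100981) and Gzmk (chr13:113171608-113225908) are neighbors on the minus strand. The other 5 lie on the minus strand of chromosome 14 with Gzmg and Gzmn, 7 genes within 144.635 kb: Gzme (chr14:56117626-56120625), Gzmd (chr14:56129556-56132608), Gzmf (chr14:56205263-56211417), Gzmc (chr14:56231441-56234656) and Gzmb (chr14:56258838-56262260). Transcripts of Gzmd and Gzme were identical over 95.1% of their aligned bases. Of all stretches of 90 bases in the Gzmd transcript, 19 of 875 (2.17%) also occur in Gzme or Gzmg, and 8 of 827 (0.967%) in the Gzme transcript occur in Gzmd or Gzmg. A read from such a stretch cannot be assigned to 1 gene by its sequence. How much of the Gzmd and Gzme counts came from shared stretches was not tested. No stretch of 90 bases was shared for the other 7 genes.

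The 5 chromosome 14 genes were printed because Gzmb on the one hand and Gzmc to Gzmf on the other were distributed so differently over the T cells. These are the 200 bases before the RefSeq start of each gene (GRCm38.p6, minus strand, 5′ to 3′): chr14:56262335-56262534 for Gzmb, chr14:56234658-56234857 for Gzmc, chr14:56132594-56132793 for Gzmd, chr14:56120626-56120825 for Gzme and chr14:56211408-56211607 for Gzmf. Capitals mark matches to the Runx motif (TGTGGT, or ACCACA where it lies on the other strand) and the AP-1 motif (TGANTCA).
Gzmb: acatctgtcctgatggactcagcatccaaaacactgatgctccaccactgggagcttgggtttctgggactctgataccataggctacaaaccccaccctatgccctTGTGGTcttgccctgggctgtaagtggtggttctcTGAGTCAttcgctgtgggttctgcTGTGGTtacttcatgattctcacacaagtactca
Gzmc: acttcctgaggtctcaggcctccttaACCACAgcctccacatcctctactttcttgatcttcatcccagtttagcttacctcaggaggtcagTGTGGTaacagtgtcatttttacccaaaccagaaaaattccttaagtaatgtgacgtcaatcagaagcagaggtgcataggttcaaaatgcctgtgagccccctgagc
Gzmd: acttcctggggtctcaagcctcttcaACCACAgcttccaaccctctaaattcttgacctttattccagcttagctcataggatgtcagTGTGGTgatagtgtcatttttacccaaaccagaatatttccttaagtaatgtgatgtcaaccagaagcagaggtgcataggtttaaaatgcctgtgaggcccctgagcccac
Gzme: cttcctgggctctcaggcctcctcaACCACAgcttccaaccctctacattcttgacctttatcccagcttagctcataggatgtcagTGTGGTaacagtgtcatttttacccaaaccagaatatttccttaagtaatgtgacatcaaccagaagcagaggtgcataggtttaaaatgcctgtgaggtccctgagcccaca
Gzmf: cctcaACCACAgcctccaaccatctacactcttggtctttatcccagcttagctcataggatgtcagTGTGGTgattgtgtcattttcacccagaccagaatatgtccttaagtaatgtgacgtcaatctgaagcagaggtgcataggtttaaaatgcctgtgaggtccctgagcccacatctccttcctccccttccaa

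The Gzmb sequence held 2 Runx matches, at -93 and -34 from the start, with 1 AP-1 match between them at -58. Gzmc, Gzmd, Gzme and Gzmf each held 2 Runx matches and no AP-1 match, with the first match at -174, -174, -175 and -195 on the opposite strand. Identity over these 200 bases was 94.0% between Gzmd and Gzme and 86.3% between Gzmc and Gzme, against 50.7% between Gzmb and Gzmc. Matches were counted in a longer window than the printed one, from 250 bases before to 50 after the start on both strands. In this longer window of all 32851 RefSeq promoters, the Runx letters occurred in 16.8%, the AP-1 letters in 7.81% and a T-box motif (TCACACC) in 3.98%. Of the other genes, Gzma (-50) and Prf1 (-130) held 1 Runx match, Gzmk 1 T-box match (-75), and Nkg7 1 of each (-83 for Runx and -13 for T-box). A match is a description of the letters, since no binding or chromatin was measured here.

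The first question was which T lineage carried which granule genes. All values below are CPM of the UMIs summed over a gate, followed in parentheses by a 95% interval for counting error. The pool is 1 sample without replicates, so there is no test and no p-value, and because UMIs of 1 cell are not independent the intervals are narrower than the spread between animals would be. CPM here compares 1 gene between cells and not different genes with each other.

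Nkg7, which sits in the membrane of lytic granules and is needed for their release, was at 1860 CPM (1822 to 1898) in the CD8 gate, at 454 (440 to 469) in the Treg gate, at 420 (402 to 438) in the Tconv gate and at 377 (309 to 457) in the NKT gate. The CD8 level was 4.10-fold the Treg level (3.94 to 4.25) and 4.43-fold the Tconv level, whereas the Treg, Tconv and NKT gates as a whole were close to each other. The 62 kept cells with the invariant alpha chain of NKT cells were higher, at 652 CPM (547 to 772). Within the NKT gate the 16 cells with that chain were at 638 CPM (454 to 872), and the 11 with another productive alpha chain at 178 (71.7 to 367). Treg over Tconv the Nkg7 ratio was 1.08 (1.03 to 1.14), but 0.772 (0.671 to 0.888) in cells with 200 to 999 detected genes and 0.958 to 0.975 under 3 other settings, so no order of these gates is given. Prf1, the pore-forming protein, was at 143 CPM (132 to 153) in CD8 cells, 34.6 (30.7 to 38.9) in Treg cells, 13.5 (10.5 to 17.2) in Tconv cells and 10.8 (2.22 to 31.5, 3 UMIs) in NKT cells. It was 4.12-fold higher in the CD8 gate than in the Treg gate (3.59 to 4.74), and Treg cells had 2.56-fold the level of Tconv cells (1.96 to 3.38). In cells with 200 to 999 detected genes (808 Treg and 807 Tconv cells) that last ratio was 0.934 (0.537 to 1.61), so no Prf1 difference between Treg and Tconv cells was detectable there. When the upper limit on detected genes was lifted, the CD8 to Treg ratio of Prf1 was 7.99.

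Gzmb was the only member that was higher in the Treg gate than in the CD8 gate. It stood at 1318 CPM (1293 to 1343) in Treg cells, at 1050 (1022 to 1078) in CD8 cells, at 392.2 (375 to 410) in Tconv cells and at 338 (273 to 413) in NKT cells. The Treg level was thus 1.26-fold the CD8 level (1.21 to 1.30) and 3.36-fold the Tconv level (3.20 to 3.53), and the NKT and Tconv intervals overlapped. As CD8 over Treg the Gzmb ratio was 0.797 (0.771 to 0.823), near the median of 0.856 over all genes tested. A gene in the middle of that ranking was thus also higher in Treg cells. The order of CD8 and Treg cells depended on the upper limit of 2500 genes, for without it the CD8 level was 1.39-fold the Treg level, as described with the plot of levels by detected genes.

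Gzma, the tryptase, was largely a transcript of the CD8 gate. It was at 846 CPM (821 to 872) in CD8 cells, 27.2 (23.8 to 31.0) in Treg cells, 62.9 (56.2 to 70.3) in Tconv cells and 126 (87.6 to 175) in NKT cells. The CD8 to Treg ratio was 31.1 (27.2 to 35.7), and 54.0 without the 10 highest cells of each gate. The 35 UMIs of the NKT gate came from 7 cells, 1 of which held 21, so the 1.97-fold ratio to Tconv cells without Zbtb16 (1.34 to 2.79) rests on very few cells. Leaving out the 10 highest cells removed all of these by construction. Gzmk, the other tryptase, was at 181 CPM (169 to 193) in CD8 cells, 9.08 (7.14 to 11.4) in Treg cells, 39.6 (34.3 to 45.5) in Tconv cells and 10.8 (2.22 to 31.5) in NKT cells. Among CD4 lineage cells both tryptases were higher in Tconv than in Treg cells, by 2.31-fold for Gzma (1.94 to 2.75) and 4.37-fold for Gzmk (3.33 to 5.77), opposite in direction to Gzmb. For Gzma this was not so in every subset, since Treg over Tconv was 0.871 (0.652 to 1.17) in cells with 1000 to 1499 detected genes, and cells with inhibitory receptors had 22.3 (16.8 to 29.0) and 17.0 CPM (8.77 to 29.6).

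Gzmc was at 190 CPM (178 to 203) in CD8 cells, 12.5 (10.2 to 15.1) in Treg cells, 30.1 (25.5 to 35.3) in Tconv cells and 10.8 (2.22 to 31.5) in NKT cells. Gzmf was at 40.8 CPM (35.4 to 46.7) in CD8 cells against 6 UMIs in Treg, 8 in Tconv and 0 in NKT cells. Gzmd (103 UMIs, 20.4 CPM) and Gzme (106 UMIs, 21.0 CPM) were found in CD8 cells with 1 UMI each in the Treg gate and none in the Tconv and NKT gates. A count of 0 allows up to 3 UMIs, which is 0.598 CPM in the Tconv gate and 10.8 CPM in the much smaller NKT gate. Both limits lie below the CD8 levels of Gzmd (16.6 to 24.7), Gzme and Gzmf, but they take UMIs as independent. Few CD8 cells carried these genes. In cells thinned to equal depth, as described below, the shares were 0.485% (Gzmd), 0.546% (Gzme) and 1.09% (Gzmf) of CD8 cells. For each gene the share of 0 among 79 NKT cells had a 95% upper bound of 4.56%. A lower level in NKT cells is thus not shown for these genes. Set over the Tconv limit, the CD8 values of Gzmd and Gzme were 34.1-fold and 35.1-fold, without the counting error of the CD8 counts. The lower bounds of the CD8 to Tconv ratios, from exact 95% counting intervals, were 27.2 and 28.1. Summed over Gzmc to Gzmf, the level was 272 CPM in CD8, 13.4 in Treg and 31.7 in Tconv cells, a CD8 to Treg ratio of 20.3 (16.7 to 24.8) that became 76.0 without the upper limit on genes. Gzmg and Gzmn, the other granzymes of the chromosome 14 cluster, had no UMI in any gate.

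**Figure D1:**
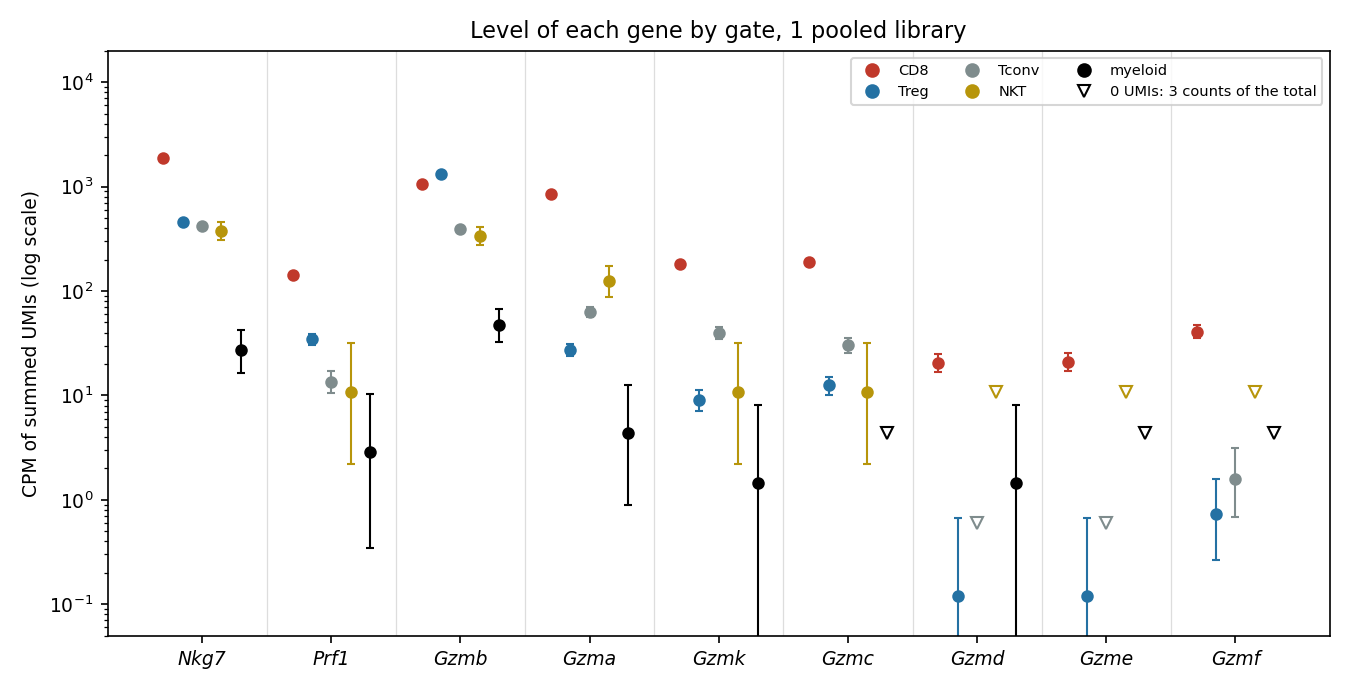
CPM of summed UMIs (log scale) of each gene in the CD8, Treg, Tconv, NKT and myeloid gates of 1 pooled library, with 95% intervals for counting error; open triangles stand at the level of 3 counts where no UMI was seen. Gzmb is the only gene whose Treg point (1318 CPM) lies above its CD8 point (1050 CPM), and the myeloid points lie below the CD8 points of all 9 genes.

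Among all 7826 genes with at least 100 UMIs in both gates together, 2.10% were at least 2-fold higher in CD8 than in Treg cells, and 8 of the 9 members were among them, all but Gzmb. At least 2-fold lower were 8.27% of genes and 0 of 9 members. Ranked by this ratio, Gzme was number 3, Gzmd 4, Gzmf 7, Gzma 10, Gzmk 17, Gzmc 24, Prf1 64 and Nkg7 65, with Gzmb at 4678. Gzmd, Gzme, Gzmf and Gzmk had 1, 1, 6 and 75 UMIs in the Treg gate and reached 100 UMIs only with their CD8 counts, by which the first 3 had to be higher in CD8 cells, so the count of members is no support for a difference. For Gzmd and Gzme the ratios of 168 (29.6 to 6716) and 173 (30.4 to 6909) to a single Treg UMI have very wide intervals. Against Tconv cells, 1.60% of 7016 genes were at least 2-fold higher in the CD8 gate, which included 9 of 9 members, and 2.37% were lower, with 0 of 9. Of these 9, Gzmd, Gzme, Gzmf and Prf1 had 0, 0, 8 and 68 Tconv UMIs and passed the minimum only with their CD8 counts, so this count is no support either. Between Treg and Tconv cells, 6 members had enough UMIs: Gzmb and Prf1 were among the 3.49% of 7884 genes higher in Treg cells, and Gzma, Gzmc and Gzmk among the 1.53% lower, with Prf1 passing the minimum only with its Treg counts and Gzmk only with its Tconv counts. The Gzmc call rests on few cells, since 10 of the 46 Tconv cells with Gzmc held 72.2% of its UMIs and the Treg over Tconv ratio went from 0.414 to 0.688 without the 10 highest cells of each gate. In NKT cells against Tconv cells without Zbtb16, 0 of 5 members were among the 1.98% of 5212 genes higher, and Gzmc and Gzmk, with 3 UMIs each in the NKT gate and past the minimum only with their Tconv counts, were among the 9.38% lower. The median ratio over all genes was 0.856 for CD8 over Treg, 0.920 for CD8 over Tconv, 1.07 for Treg over Tconv and 0.938 for NKT over Tconv cells.

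Levels alone do not say how many cells carry a transcript, and the gates differ in depth. Each cell was therefore thinned to 1500 UMIs, which left 1151 CD8, 2155 Treg, 1447 Tconv, 79 NKT and 131 myeloid cells and left out 109, 454, 322, 2 and 60 shallower ones. Gzmb was detected in 50.03% of Treg cells (47.9 to 52.2), 43.1% of CD8 cells (40.2 to 46.0), 18.4% of Tconv cells and 20.1% of NKT cells, against 5.42% of myeloid cells (2.22 to 10.8). Before thinning the shares were 59.4%, 53.0%, 27.3%, 28.4% and 9.95%, at median depths of 2780, 3462.5, 2498, 2939 and 3000 UMIs. All 4 T cell shares thus lay above the level in cells that should lack the gene. Nkg7 was detected in 78.7% of thinned CD8 cells, 27.1% of Treg, 28.7% of Tconv and 29.4% of NKT cells, against 5.53% of myeloid cells.

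The tryptases and perforin were detected most widely in the CD8 gate. Gzma was found in 22.4% of CD8 cells (20.05 to 24.9), 2.46% of Treg, 3.24% of Tconv and 6.67% of NKT cells (2.28 to 14.6), and 0.863% of myeloid cells (0.0314 to 4.35). By share the Treg, Tconv and NKT gates thus cannot be told from the background at this number of myeloid cells. By summed level they lay above the myeloid gate (4.33 CPM, 0.892 to 12.6), at 27.2 (23.8 to 31.0), 62.9 (56.2 to 70.3) and 126 CPM (87.6 to 175). Few cells carried these levels, since 10 cells held 53.8% of the Gzma UMIs in the Treg gate and 56.0% in the Tconv gate. Gzmk was found in 18.8% of CD8, 1.18% of Treg and 4.46% of Tconv cells, against 0.0687% of myeloid cells with an upper bound of 2.92%. The CD8 and Tconv shares of Gzmk (3.45 to 5.65 in Tconv cells) lay above that bound, while the Treg share cannot be told from background. Prf1 was found in 12.3% of CD8, 3.30% of Treg (2.58 to 4.14) and 1.48% of Tconv cells, against 0.176% of myeloid cells with an upper bound of 3.13%, so only the CD8 share of these 3 stood clear of it. By summed level Prf1 was at 34.6 CPM (30.7 to 38.9) in Treg and 2.88 (0.349 to 10.4, 2 UMIs) in myeloid cells, so the Treg level lay above background. The Tconv interval (10.5 to 17.2) began close to the upper end of the myeloid interval. Any of Gzmc to Gzmf was found in 5.72% of CD8 (4.45 to 7.22), 1.14% of Treg and 1.79% of Tconv cells and in 0 of 131 myeloid cells, which allows a share of up to 2.29%. Here too the Treg and Tconv shares cannot be told from background. By summed level Gzmc to Gzmf were at 13.4 CPM (11.1 to 16.2) in Treg and 31.7 (26.9 to 37.0) in Tconv cells, above the 1.44 (0.0365 to 8.03, 1 UMI) of myeloid cells. Of the Gzmc UMIs, 10 cells held 53.4% in the Treg gate and 72.2% in the Tconv gate.

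Cells with more than 1 granzyme made up a larger share of the CD8 gate than of the Treg gate. Counting how many of the 7 granzymes a thinned cell held, 44.6% of CD8 cells had none, 28.3% had 1, 18.8% had 2 and 8.21% had 3 or more. Of Treg cells, 47.8% had none, 49.7% had 1, 2.48% had 2 and 0.0761% had 3 or more. The share with any granzyme was thus similar, 55.4% and 52.2%, but 27.05% of CD8 cells (24.5 to 29.7) held at least 2, against 2.55% of Treg cells (1.93 to 3.31), 2.44% of Tconv and 5.22% of NKT cells (1.48 to 12.7). Without thinning, 37.9% of CD8 and 5.29% of Treg cells held at least 2.

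**Figure D2:**
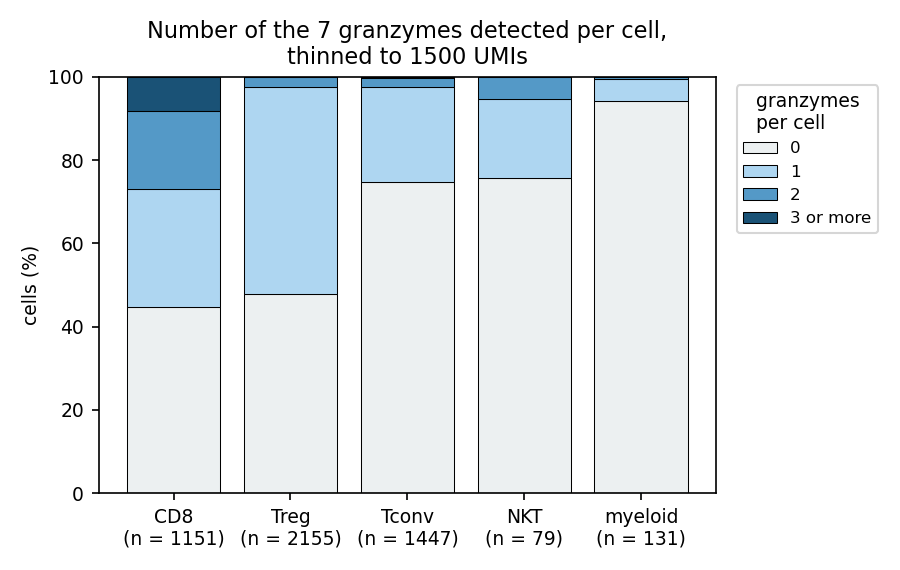
Share of cells (%) by the number of the 7 granzymes detected after thinning to 1500 UMIs, stacked for each gate with the number of cells under each bar. CD8 and Treg bars have similar parts without a granzyme (44.6% and 47.8%), but the parts with 2 or more are 27.05% and 2.55%.

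Unthinned cells were also put in classes, taken in a fixed order (Gzmc to Gzmf with at least 2 UMIs, then Gzmk, Gzma, Gzmb, and a last class for the rest). A single UMI of Gzmc to Gzmf did not count, so any of the later classes can hold cells with one. The Gzmb class held 1460 Treg cells (56.0%) and 244 CD8 cells (19.4%). In the CD8 gate 354 cells (28.1%) were in the Gzmk class, 140 (11.1%) in the Gzma class, 71 (5.63%) in the Gzmc to Gzmf class and 451 (35.8%) in the last class. Of Tconv cells 1147 (64.8%) were in the last class and 419 (23.7%) in the Gzmb class. The classes of CD8 cells differed in other genes too. Homing genes (Ccr7, Lef1, Tcf7, S1pr1, Il7r) summed to 841 CPM in CD8 cells of the last class and to 124 in the Gzmc to Gzmf class. Terminal effector genes (Cx3cr1, S1pr5, Klrg1, Zeb2, Klra9) were highest in the Gzma class, at 350 CPM against 72.3 to 174 in the other classes. Inhibitory or exhaustion genes (such as Pdcd1, Havcr2, Lag3, Tox) summed to 1372 CPM in the Gzmc to Gzmf class and 498 in the last class. The median depth moved with the class, from 3001 UMIs in the last class to 6498 in the Gzmc to Gzmf class, and its part in these sums was not tested.

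Within a gate, detection of one gene was then compared between cells with and without another, again after thinning. In the CD8 gate Gzmb was found in 69.3% of Gzma+ cells (63.3 to 74.8) and 35.6% of cells without Gzma, in 64.5% of Gzmk+ against 38.2% of other cells, in 82.5% of Gzmc+ cells (70.8 to 91.0) against 40.9%, and in 72.5% of Prf1+ cells against 39.0%. Gzma and Gzmk also went together, since Gzmk was found in 36.9% of Gzma+ cells and 13.5% of the rest. Gzmc stood apart from both. Gzma was found in 22.3% of Gzmc+ cells (12.7 to 34.7) and 22.4% of others, and Gzmk in 15.1% (7.26 to 26.5) and 19.0%. Prf1, in contrast, was found in 41.3% of Gzmc+ cells (28.9 to 54.6) and 10.6% of others. The cells were brought to the same depth, but cell size and state may still differ between those with and without a gene, which was not tested.

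In the Treg gate Gzmb was found in 73.8% of Prf1+ cells (62.0 to 83.5) and 49.2% of other cells, and Nkg7 in 54.2% of Prf1+ cells and 26.1% of others. Prf1 was detected in 4.86% of Gzmb+ Treg cells (3.66 to 6.32) and 1.73% of Gzmb- cells (1.04 to 2.70). By this detection most Gzmb+ Treg cells had no Prf1 UMI at this depth. Gzma was found in 2.55% of Gzmb+ and 2.38% of Gzmb- Treg cells, with intervals (1.69 to 3.67 and 1.56 to 3.48) that overlap almost wholly, whereas the same pair went together in CD8 cells.

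**Figure D3:**
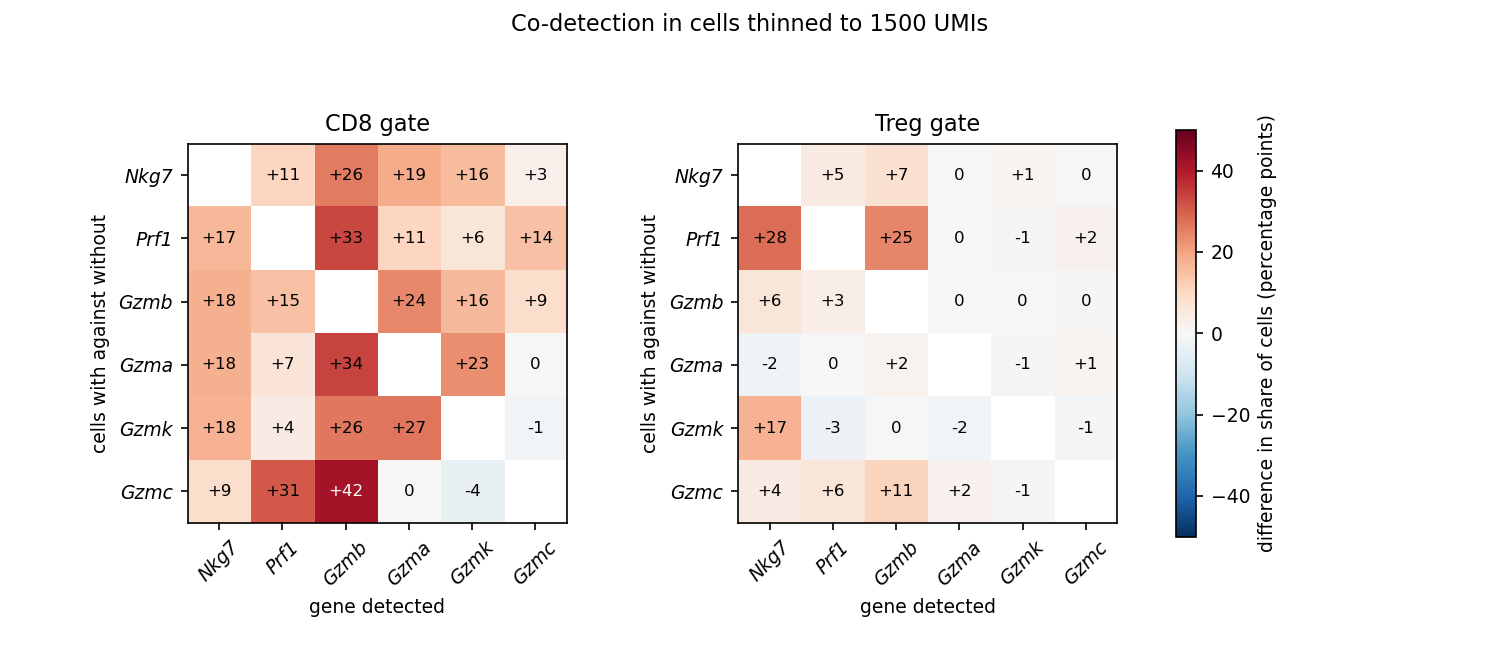
Difference, in percentage points, between the share of cells with the gene on the x axis among cells with and among cells without the gene on the y axis, for the CD8 gate (left) and the Treg gate (right), both thinned to 1500 UMIs; Gzmd, Gzme and Gzmf, found in 5.58, 6.28 and 12.5 CD8 cells on average, are left out. In CD8 cells Gzmb is higher with each of the 5 other genes plotted, and among these most with Gzmc (82.5% against 40.9%), while Gzma and Gzmk show no rise with Gzmc; in Treg cells the larger differences are in the Prf1 row and, from few cells, the Gzmk row.

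Gzmc to Gzmf came from a small number of CD8 cells. The 103 Gzmd UMIs came from 15 cells, 10 of which held 93.2% of them, and the 106 Gzme UMIs from 17 cells. The 206 Gzmf UMIs came from 30 cells, 1 of which held 59, and 10 of the 108 cells with Gzmc held 50% of its 961 UMIs. For Gzmb 87 of 668 CD8 cells with the gene held 50% of 5304 UMIs, and 235 of 1551 Treg cells held 50% of 10888 UMIs.

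Altogether 42 CD8 cells carried a UMI of Gzmd, Gzme or Gzmf, with a median of 5474 UMIs in all. Gzmb was detected in 41 of them and Gzmc in 35, whereas Gzmk was detected in 13 and Gzma in 9. Gzmd and Gzme were found together in 11 of these cells, and their counts are uncertain against each other as stated above. Of the 42 cells, 26 had a clonotype, and these belonged to 25 clonotypes.

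Cells were next grouped by state within each gate, from UMIs of genes that are no members, in the order cycling (Mki67, Top2a, Cdk1, Birc5, Ccnb2), terminal effector (Cx3cr1, S1pr5), inhibitory receptors (Pdcd1, Havcr2, Lag3), homing (Ccr7, Lef1) and other. The 5 CD8 states held 137, 125, 238, 133 and 627 cells. Each of the members given here was lowest in CD8 cells with homing genes. Gzmb was at 158 CPM (128 to 194) there, at 665 in other cells, 1273 in cycling cells, 1249 in cells with terminal effector genes and 1844 (1768 to 1922) in cells with inhibitory receptors. Gzma followed another order. It was at 3028 CPM (2872 to 3190) in cells with terminal effector genes, where 56.0% of cells carried it, and at 780 in other, 644 in inhibitory receptor, 578 in cycling and 153 in homing cells. Both genes thus had their lowest level in the homing state, but their highest in different states.

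Gzmk varied less among the states outside homing, at 243 CPM in inhibitory receptor, 224 in cycling, 203 in terminal effector, 155 in other and 54.4 in homing CD8 cells. Prf1 was at 244 CPM in inhibitory receptor, 217 in cycling, 193 in terminal effector, 68.0 in other and 22.1 in homing cells, with intervals of the first 3 that overlapped in part. Gzmc to Gzmf stood at 540 CPM (500 to 583) in inhibitory receptor cells and 537 (490 to 588) in cycling cells, at 135 and 92.3 in terminal effector and other cells, and at 8.50 (2.76 to 19.8, 5 UMIs) in homing cells. Nkg7 went from 894 CPM in homing to 2748 in terminal effector cells. Median depth ranged from 2764 UMIs in other to 6393 in cycling CD8 cells, and its part in these levels was not tested.

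In the Treg gate Gzmb varied over a narrower range, between 613 CPM (542 to 691) in the 108 cells with homing genes and 1575 (1526 to 1626) in cells with inhibitory receptors, and even the homing state carried it in 35.2% of its cells. The homing Treg level was 613 CPM against 158 CPM in homing CD8 cells, and in other cells too the Treg level (1338) was above the CD8 level (665). In inhibitory receptor cells the CD8 level (1844) was above the Treg level (1575). Cycling cells had the same order, at 1273 CPM in CD8 and 904 (844 to 967) in Treg cells. Cells with terminal effector genes were alike, at 1249 and 1255 CPM. Nkg7 was at 162 CPM in homing and 798 in inhibitory receptor Treg cells, and Prf1 at 13.7 (5.02 to 29.8) and 70.9 (60.8 to 82.2). In Tconv cells Gzmb was at 98.4 CPM in homing, 355 in other, 466 in cycling and 913 (844 to 987) in inhibitory receptor cells. In each of these 3 gates Gzmb was thus highest beside inhibitory receptors and lowest beside homing genes.

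**Figure D4:**
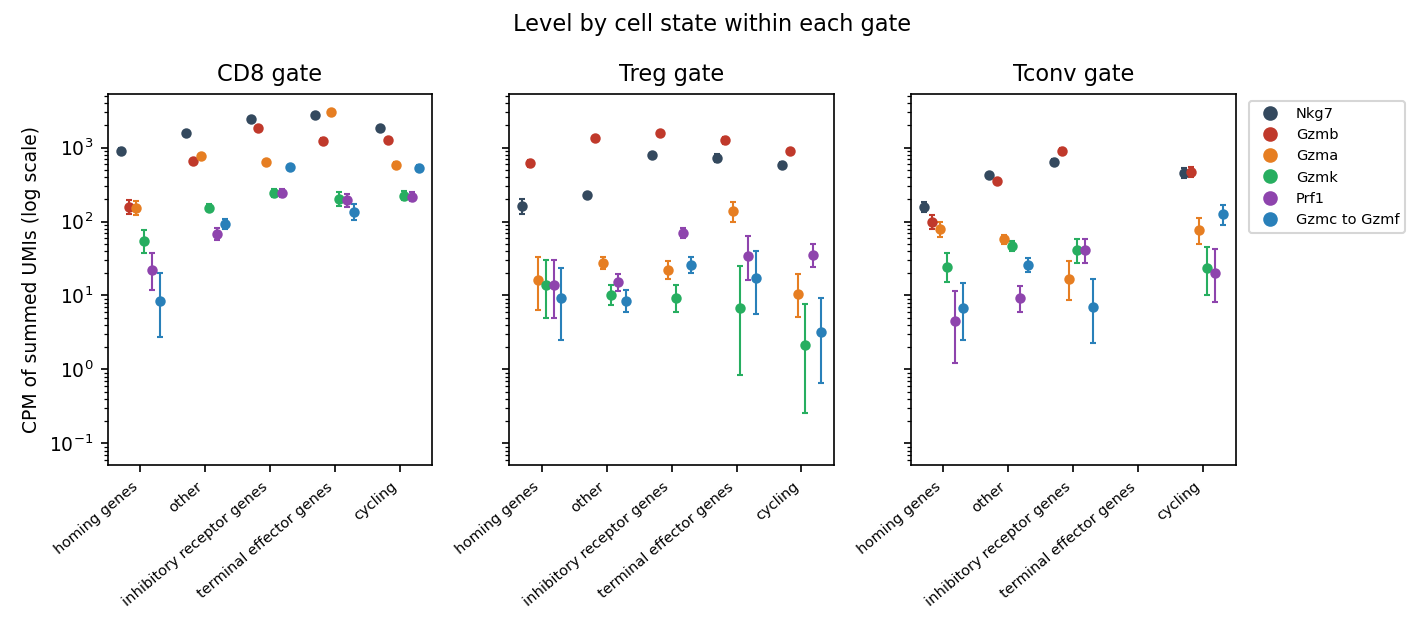
CPM of summed UMIs (log scale) of Nkg7, Prf1 and the granzymes by cell state in the CD8, Treg and Tconv gates, with 95% intervals for counting error and only states of at least 50 cells. Gzma peaks in CD8 cells with terminal effector genes (3028 CPM), and Gzmc to Gzmf peak in inhibitory receptor (540 CPM) and cycling (537 CPM) CD8 cells.

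Treg cells were also split by Il1rl1, the gene of the IL-33 receptor. Gzmb was almost the same in the 504 Il1rl1+ cells (1376 CPM, 1320 to 1434) and the 2105 Il1rl1- cells (1303 CPM, 1276 to 1331), a ratio of 1.06 (1.008 to 1.11). Among 6671 genes with at least 100 UMIs in both sets together, 1.12% were at least 2-fold lower in Il1rl1+ cells and 0.480% higher. Of the 5 members tested, Gzmc, Prf1 and Nkg7 were among the lower and 0 among the higher. Gzmc and Prf1, with 5 and 28 UMIs in Il1rl1+ cells, passed the minimum only with their Il1rl1- counts, so this count is no support for a difference. Nkg7 was at 157 against 528 CPM, a ratio of 0.297 (0.261 to 0.338), Prf1 at 17.1 against 38.9 CPM (0.439, 0.286 to 0.650), and Gzma at 16.5 against 29.9 CPM (0.552, 0.355 to 0.827). Gzmk had 7 against 68 UMIs (0.416, 0.161 to 0.905) and Gzmc 5 against 98 (0.206, 0.0655 to 0.498). Gzmd, Gzme and Gzmf had 0 UMIs in Il1rl1+ cells against 1, 1 and 6, too few to show a difference. Median depth was 2850 and 2772 UMIs.

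The level of Gzmb by lineage depended on the number of genes detected per cell. In bins of 200 to 999, 1000 to 1499, 1500 to 1999 and 2000 to 2500 detected genes, Gzmb stood at 692, 843, 1215 and 1286 CPM in CD8 cells and at 1519, 1476, 1369 and 815 CPM in Treg cells. The CD8 to Treg ratio went from 0.455 (0.407 to 0.508) through 0.571 and 0.887 to 1.58 (1.47 to 1.70), so that the 2 lineages crossed within the kept cells. The 766 barcodes above 2500 genes, left out elsewhere here, continued this, with 2170 CPM in 278 CD8 cells and 606 CPM in 224 Treg cells, a ratio of 3.58 (3.40 to 3.77). Treg cells were above Tconv cells in the 4 bins within the limit, by 3.09, 4.05, 4.16 and 2.18-fold. Above the limit the ratio was 3.37, but the 44 Tconv barcodes there also carried 2513 CPM of melanoma markers and 512 CPM of myeloid markers. Without barcodes that had 2 or more beta chains, myeloid UMIs or melanoma UMIs, Gzmb there was at 391 CPM (321 to 471) in 25 Tconv cells and 669.5 CPM (635 to 705) in 170 Treg cells.

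Other members moved with detected genes in their own ways in CD8 cells. Prf1 was at 80.5, 89.8, 162, 220 and 345 CPM from the lowest to the highest bin, and Gzmc to Gzmf at 256, 195, 238, 431 and 1396 CPM. Gzma was highest where few genes were detected, at 1388, 982, 691, 610 and 191 CPM. Gzmk stayed between 155 and 187 CPM in all 5 bins. Of Gzmf above the limit, 1 cell held 658 of 1041 UMIs.

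Several other measures moved with the number of detected genes. Cycling cells made 70.9% of the 278 CD8 barcodes above the limit and 10.9% of those within it, and 71.4% and 7.40% in the Treg gate. The melanoma list summed to 469 CPM in CD8 barcodes above the limit against 11.5 within it, and the myeloid list to 804 against 197 CPM. In Treg barcodes the melanoma list was at 351 against 13.2 CPM and the myeloid list at 838 against 194 CPM, and 44 of the 278 CD8 barcodes carried 2 productive beta chains. When barcodes with 2 beta chains, or with at least 2 UMIs of myeloid or of melanoma genes, were left out, 197 CD8 barcodes above the limit had 2485 CPM of Gzmb and 170 Treg barcodes had 670 CPM, and the ratio over all cells without the upper limit was 1.37. What part such barcodes or the cell cycle have in the difference between the lineages was not tested. By detection in cells thinned to 1500 UMIs, with no upper limit, Gzmb was found in 48.0% of CD8 cells (45.3 to 50.6) and 49.2% of Treg cells (47.2 to 51.2), which cannot be told apart at this number of cells.

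**Figure D5:**
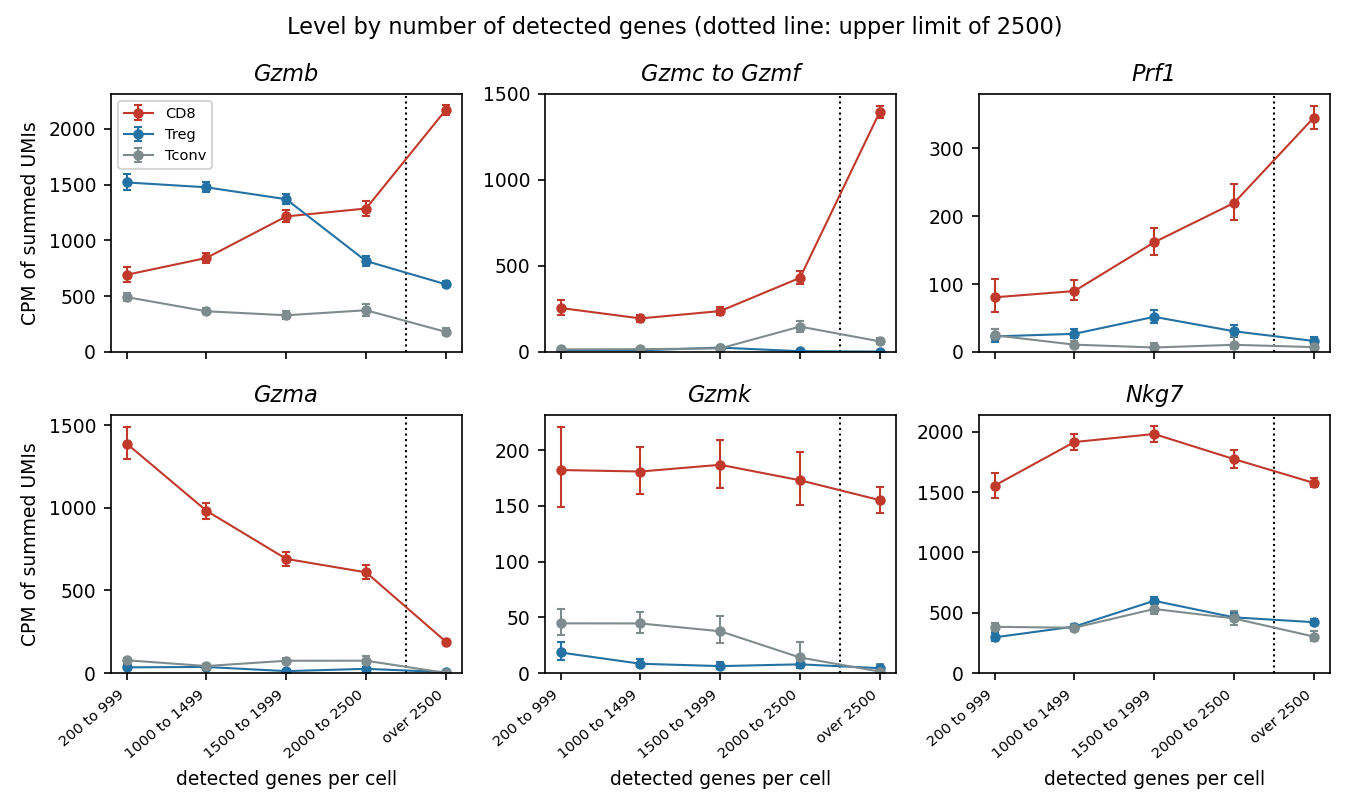
CPM of summed UMIs with 95% intervals for counting error in 5 bins of detected genes per cell for each gate; the dotted line marks the upper limit of 2500 genes. The Gzmb lines of CD8 cells (692 to 2170 CPM) and Treg cells (1519 to 606 CPM) cross between the third and the fourth bin.

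Other genes of the granule pathway lay on both sides. Of 38 listed genes, 35 had at least 100 UMIs in the CD8 and Treg gates together: 7 were at least 2-fold higher in CD8 cells, where 2.10% of all genes were, and 6 at least 2-fold lower, where 8.27% were, with a median ratio of 0.898 beside 0.856 over all genes. Of the 7, Gzmm, Eomes and Fasl had 4, 20 and 47 Treg UMIs and passed the minimum only with their CD8 counts, so the count is no support for a difference. Higher were Gzmm (42.1-fold, 15.95 to 157, on 4 Treg UMIs), the granule protease cathepsin W (Ctsw, 7.05-fold), the granzyme inhibitors Serpinb9 (3.18-fold) and Serpinb6b (3.13-fold), the death ligand Fasl (8.14-fold), the cytokine Ifng (9.87-fold) and the T-box factor Eomes (22.7-fold). Lower were the proteoglycan serglycin that packs granzymes (Srgn, ratio 0.493), the lysosomal protein Lamp2 (0.429), the fusion protein Stx11 (0.291), the granule sorting subunit Ap3b1 (0.396) and the transcription factors Prdm1 (0.366) and Nfil3 (0.349).

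In the granule list against Tconv cells, 7 of 36 genes were at least 2-fold higher in CD8 cells (1.60% of all genes) and 1 was lower (2.37% of all genes), namely Serpinb1a with a ratio of 0.210. Here Gzmm, Eomes and Serpinb9b, with 11, 20 and 6 Tconv UMIs, passed only with their CD8 counts, and Serpinb1a, with 31 CD8 UMIs, only with its Tconv count, so these counts are no support for a difference. Between Treg and Tconv cells 3 of 33 were higher in Treg cells (3.49% of all genes), namely the cathepsin inhibitor cystatin F (Cst7, 2.77-fold), Prdm1 (2.39-fold) and Nfil3 (2.78-fold), and 4 were lower (1.53% of all genes), namely Fasl, Serpinb1a, Ifng and Tnf. Of these, Fasl and Serpinb1a had 47 and 70 Treg UMIs and passed only with their Tconv counts, so this count too is no support. In NKT against Tconv cells without Zbtb16, 3 of 32 were higher (1.98% of all genes) and 7 lower (9.38%); genes could pass there through the Tconv counts alone, and nothing is read from these counts. Serpinb9b had 94 UMIs in CD8 and 3 in Treg cells, short of the minimum.

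To see which other genes varied like the members, log2(CPM + 1) was correlated over 15 combinations of gate and state for 5761 genes. All 15 points come from the same library, so these are descriptions without a test. Gzma was most like the killer cell lectin receptors Klre1 (Pearson r = 0.941) and Klrd1 (0.930), followed by Cd160, Klrc1 and Ccl5. Gzmb was most like S100a6 (0.960), AW112010 (0.953), Lat2, Atp5d and Reep5. Gzmk was most like Plac8 (0.913), Armc7, Thy1, Ms4a4b and Eomes, and Prf1 most like Arsb (0.915), the adaptor gene Sh2d2a (0.896), Plek, Pgls and Mrpl20. Summed Gzmc to Gzmf had lower values, led by Atp5h (0.856) and Thy1 (0.855), then Sub1, Zyx and Uqcc2.

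The tumors could be compared only in few cells. Of 9078 kept cells, 796 were given B16 and 143 B16–IL-33 by their tags, and 849 of these 939 rested on 1 tag UMI. Gzmb in CD8 cells was at 691 CPM in the 103 cells of B16 tumors and at 1353 CPM in the 19 cells of B16–IL-33 tumors, a ratio of 1.96 (1.56 to 2.44). By tag it was 589 and 728 CPM for the B16 tags and 982 and 1718 CPM for the B16–IL-33 tags, and the intervals of the nearest pair, 633 to 833 and 705 to 1333 (7 cells), overlapped. Without the upper limit on genes the ratio was 0.918, so the direction was not stable. Leaving out the 10 highest cells of each tumor gave 0.845. That removed 10 of 19 B16–IL-33 cells but 10 of 103 B16 cells, which lowers the ratio largely by construction, so nothing is read from it.

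Prf1 in CD8 cells was at 80.0 CPM for B16 and 285 for B16–IL-33 (33 and 24 UMIs, a ratio of 3.56, 2.01 to 6.21). By tag Prf1 was at 95.6 and 75.9 CPM for B16. It was at 359 (15 UMIs in 2 cells) and 212 CPM (9 UMIs in 4 cells) for B16–IL-33, so the ratio rests on 6 cells with Prf1. Gzma was at 766 and 356 CPM (0.465, 0.308 to 0.677). By tag Gzma was at 868 and 714 CPM for B16 and at 71.9 (3 UMIs) and 635 CPM (419 to 924, 27 UMIs) for B16–IL-33. Without the cells of the first B16–IL-33 tag the Gzma ratio was 0.829 (0.538 to 1.23), and without those of the second 0.0938 (0.0192 to 0.277), so its size rests on 1 tag. In Treg cells (245 and 55 cells) Gzmb was at 1244 CPM for B16 and 928 for B16–IL-33, a ratio of 0.746 (0.631 to 0.878). By tag these were 1072 and 1377 CPM for B16 and 1175 and 833 CPM for B16–IL-33, so the tags of the 2 tumors overlapped, and the ratio was 0.969 (0.796 to 1.18) without the second B16 tag. Nkg7 in Treg cells was at 749 and 254 CPM, a ratio of 0.339 (0.246 to 0.457). The mice behind each tag are not given in the sources used here, so the tags were not taken as replicates, and tumor and mouse cannot be told apart.

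CD8 clones were compared last, with the 921 CD8 cells that had a clonotype. The 200 cells of 73 clones with at least 2 cells were set against the 721 single cells. Of 4209 genes, 0.570% were at least 2-fold higher in expanded cells and 1.35% lower, with Prf1 the 1 member of 7 tested among the higher and 0 among the lower, and the median ratio over these genes was 1.025. Prf1 was at 270 against 104 CPM (2.60-fold, 2.20 to 3.07), Gzmb at 1769 against 909 CPM (1.95-fold, 1.83 to 2.07), Gzmk at 294 against 164 CPM (1.80-fold), Nkg7 at 2579 against 1755 CPM (1.47-fold) and Gzma at 1075 against 812 CPM (1.32-fold). Gzmc to Gzmf were at 302 against 241 CPM (1.25-fold, 1.09 to 1.43), and at 123 CPM in the 98 cells of the 22 clones with at least 3 cells, which turned that ratio to 0.509 (0.384 to 0.664). The largest clone had 13 cells, with 3071 CPM of Gzmb, 518 of Prf1, 1415 of Gzma and 25.3 of Gzmc. Median depth was 4402.5 UMIs in expanded and 3980 in single cells.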

How the data were processed

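The authors deposited UMI counts per gene and barcode of 1 pool of T cells, made by Cell Ranger (3.1.0 in the matrix header, 6.1.1 in the submitters' processing notes) on a joint human and mouse (mm10) reference, unnormalized and before cell filters. Hashtag counts per tag and barcode (11756 barcodes shared) and a table of TCR contigs (6665 shared) were deposited too; how hashtags were counted is not given in the sources used here. Human genes (8562 UMIs) were left out.

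Cells were kept by the limits of the study's methods. Doublets were kept, with barcodes of 2 or more productive beta chains left out as an alternative. Levels are summed UMIs of a gene per 1000000 UMIs (CPM), with exact Poisson intervals, exact conditional binomial intervals for ratios and Clopper-Pearson intervals for shares, at 95%; they cover counting error only. Shares are means over 100 draws that thin each cell to 1500 UMIs. Ratios of at least 2-fold were counted among genes with at least 100 UMIs in both gates together, without the gate genes. A cell was given a tumor by at least 1 tag UMI and none of the other tumor's tags. The genes named were the 9 members, up to 3 genes of each granule role with the largest CD8 to Treg ratio either way, and the 5 genes most correlated with a member. One planned gene of the homing list and state is not reported here and was left out of both, and of what was computed from them. The members and lists were chosen with earlier results of these data known. Alternatives changed the gene and mitochondrial limits, the gates, doublets, the mean, the denominator, thinning depth and clone size. Coordinates came from GENCODE vM21, promoters from RefSeq. Python 3.11.15, NumPy 2.4.6, SciPy 1.17.1, pandas 2.3.3 and Biopython 1.88 were used. The intervals were tested only on counts simulated as independent, so that test does not cover the clustering of UMIs by cell.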

Additional observations from a re-analysis of the deposited data

Results flagged for a closer look

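Barcodes above 2500 detected genes, which the comparisons leave out, carried some granule transcripts above the level of the myeloid gate. In CD8 barcodes these were 2170 CPM of Gzmb, 1396 of Gzmc to Gzmf, 191 of Gzma, 155 of Gzmk, 345 of Prf1 and 1575 of Nkg7, beside 47.6, 1.44, 4.33, 1.44, 2.88 and 27.4 CPM in myeloid cells. Without the 21 myeloid barcodes that were also in a T cell gate, the myeloid level was 25.4 CPM (14.5 to 41.3) for Gzmb and 1.59 for Prf1. In Treg barcodes above the limit they were 606 CPM of Gzmb, 16.2 of Prf1 and 422 of Nkg7, while Gzma (6.21, 3.68 to 9.81), Gzmk (4.48, 2.39 to 7.66) and Gzmc to Gzmf (2.41, 0.970 to 4.97) had intervals that overlapped those of the myeloid gate.

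The 3380 kept cells outside the gates, most of them without any gate transcript, carried 493 CPM of Gzmb, 43.3 of Gzmc to Gzmf, 138 of Gzma, 26.9 of Gzmk, 14.2 of Prf1 and 407 of Nkg7. They included 170 myeloid barcodes, 85.8% had a CD3 UMI, and the myeloid and NK lists summed to 1206 and 1131 CPM, against 194 CPM each in Tconv cells. The NK list does not tell NK from myeloid cells, since Fcer1g made 638 CPM of it and it summed to 7106 CPM in the myeloid gate. The part of myeloid or NK cells in the levels was not tested.

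Between tumors, some values of B16–IL-33 over B16 lay above 1 in one gate and below 1 in another, by every pair of tags. The Gzma ratio was 0.465 (0.308 to 0.677) in CD8 cells and 5.94 (1.88 to 19.2) in Treg cells, the latter from 8 and 7 UMIs. Without the first B16–IL-33 tag the CD8 ratio was 0.829 (0.538 to 1.23), an interval that includes 1, and the share of CD8 cells with a Gzma UMI ran the other way, at 26.3% of 19 B16–IL-33 and 22.3% of 103 B16 cells. The Nkg7 ratio was 1.48 (1.27 to 1.72) in CD8 cells and 0.339 (0.246 to 0.457) in Treg cells, while the share of CD8 cells with an Nkg7 UMI was lower in B16–IL-33, at 73.7% against 86.4%. The Prf1 ratio was 3.56 (2.01 to 6.21) in CD8 cells, with Prf1 in 6 B16–IL-33 cells. It was 0.297 (0.0346 to 1.16) in Treg cells from 2 and 35 UMIs, and 0 (0 to 2.87) in Tconv cells from 0 and 15 UMIs. The Treg and Tconv intervals of Prf1 include 1, so no opposite direction is shown for it. With tags that were not taken as replicates, the difference between gates was not tested.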

How the results depend on the processing

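Of 385 alternative values for 63 results, 254 stayed within the counting error of the value reported, 118 moved beyond it without turning and 13 turned. Settings were fixed with earlier results of these data known, and 5 were added after these values were seen: no upper gene limit together with leaving out barcodes of 2 beta chains, the same also without myeloid or melanoma UMIs, leaving out the 10 highest cells of each gate, bins of detected genes, and leaving out each hashtag. Causes were not tested. Without the upper limit the CD8 to Treg ratio was 1.39 for Gzmb (turned), 24.6 for Gzma, 7.99 for Prf1, 3.87 for Nkg7 and 76.0 for Gzmc to Gzmf, and the Treg to Tconv ratio of Gzmb 3.09. Also without 2 beta chains these were 1.38 (turned), 27.1, 8.06, 3.83, 81.1 and 3.14, and also without myeloid or melanoma UMIs 1.37 (turned) for Gzmb, 8.10 for Prf1, 3.89 for Nkg7, 78.7 for Gzmc to Gzmf and 3.11 for Treg over Tconv. With gates of at least 2 UMIs, Gzma was at 42.5, Gzmb 0.828, Gzmk 29.2, Nkg7 4.29 and Gzmb in Treg over Tconv 3.55. The mean of each cell's CPM gave 0.642 for Gzmb, 4.43 for Nkg7 and 2.87 for Treg over Tconv. A denominator without ribosomal and mitochondrial genes gave 35.7 for Gzma, 0.916 for Gzmb, 4.71 for Nkg7 and 3.02 for Treg over Tconv. Without the 10 highest cells Gzma was at 54.0, Gzmb 0.754, Gzmk 27.3, Prf1 4.79, Nkg7 4.47 and Treg over Tconv 3.77. The share of CD8 cells with at least 2 granzymes was 30.0% without the limit, 30.5% and 30.9% under its added forms, 31.3% with gates of 2 UMIs, 21.3% thinned to 1000 and 34.0% to 2500 UMIs. Gzmb between tumors in CD8 cells turned to 0.918 without the limit and 0.845 without the 10 highest cells of each tumor. The latter took 10 of only 19 B16–IL-33 cells, which lowers the ratio largely by construction. This Gzmb ratio was 1.09 and 1.08 under the added forms, 1.35 and 2.91 by single tags. Nkg7 in Treg over Tconv turned to 0.975 with gates of 2 UMIs, 0.958 by cell means and 0.973 by the other denominator. Gzma in NKT over Tconv was 0 with gates of 2 UMIs and without the 10 highest cells, the latter by construction, as only 7 NKT cells held Gzma. In clones of at least 3 cells the ratio turned to 0.592 for Gzmc, 0.491 for Gzmf and 0.509 for Gzmc to Gzmf. No paired analysis was possible because each library is 1 sample.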

Other observations

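Of the kept cells, 62 carried the invariant alpha chain of NKT cells, 16 of them in the NKT gate, 3 in the Treg gate and 17 in the Tconv gate (3 in both the NKT and the Tconv gate), and 29 passed no gate. In the CD8 gate none of 626 cells with a productive alpha chain carried it.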
